A study of Mus musculus with 6 samples.

Results

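The 30 genes described here encode enzymes and regulators of sterol and fatty acid synthesis, and they were chosen by name, from the mevalonate pathway to cholesterol, the regulators of the SREBP transcription factors, the sterol carrier *Stard4* and the genes that make and desaturate fatty acids. All 30 were found among the 32493 Ensembl genes of the count table, and all 30 passed the filter on low counts that left 16710 genes. They were measured by RNA-seq in neural stem cells (NSCs) taken from the lateral ventricles of C57BL/6J mouse embryos at E14.5 and grown for 3 generations in proliferation medium. In cko embryos both miR-151 alleles were floxed (fl/fl) and Cre came from Emx1-IRES-Cre, a driver of the dorsal telencephalon. Ctrl embryos had the same fl/fl alleles but no Cre, although the sample labels call them wild type. The deletion is thus limited to cells with a history of Emx1 expression, and Cre itself is present in the cko genotype only. Of 3 labelled ctrl columns, that of replicate 2 equalled the mean of replicates 1 and 3, rounded up, in 32493 of 32493 genes and was counted in no n, so that 2 ctrl and 3 cko libraries were compared. The sources used here do not say which libraries came from separate embryos or cultures, so p-values measure the spread between these libraries, which may be technical. Total counts lay between 17883796 and 23335736 per library, at which 3 counts, the smallest level taken as measurable, correspond to 0.129 to 0.168 CPM, counts scaled to a common library size (counting error alone is covered). The miR-151 gene itself is not among the counted genes and could not be used to check the genotypes.

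Cells build cholesterol from acetyl-CoA through mevalonate, isoprenoids, squalene and lanosterol, and build fatty acids from the same precursor through malonyl-CoA. Both routes are controlled by the sterol regulatory element-binding proteins, which are made as membrane proteins of the endoplasmic reticulum. When sterols are scarce, SCAP carries them to the Golgi for cleavage, and the released fragments enter the nucleus and activate genes of synthesis and uptake. When sterols are abundant, INSIG proteins hold SCAP back. SREBP2, from *Srebf2*, acts mainly on sterol genes, and SREBP1, from *Srebf1*, mainly on fatty acid genes. The brain makes nearly all of its own cholesterol, and glial cells that form myelin need large amounts of it.

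Of the 18 enzymes of sterol synthesis, 12 rose and none fell in cko NSCs, whereas *Srebf1* and the desaturase gene *Scd2* fell. In edgeR's quasi-likelihood test, 15 of the 30 genes were higher and 2 were lower at a Benjamini-Hochberg adjusted p under 0.05, beside 7.86% of the 16710 tested genes that were higher and 8.57% that were lower. The median log2 fold change over the 30 genes was 0.52, and over all tested genes -0.003. All 3 cko libraries lay above both ctrl libraries in 24 of the 30 genes, against 25.4% of tested genes, and below both in 5, against 24.3%. Only *Fasn* overlapped between the genotypes. By the study's own cutoffs, an absolute log2 fold change above 0.9 with an unadjusted p below 0.01, 1 of the 30 genes was higher, against 2.39% of tested genes, and 0 were lower, against 4.17%. Left out in turn, cko library 2 or cko library 3 reduced the 15 higher genes to 4 and 5, with counts over all genes down from 1314 to 317 and 336, but each of the 17 called genes kept its direction when any library was left out. The higher genes that remained without cko library 2 were *Acat2*, *Mvk*, *Idi1* and *Fdft1*, joined by *Nsdhl* without cko library 3. The 2 lower genes were 4 without ctrl library 1 and *Srebf1* alone when any 1 cko library was left out. *Acat2*, *Mvk*, *Idi1*, *Fdft1* and *Srebf1* had an adjusted p under 0.05 under all 11 alternative settings, a count that leaves out the study's own cutoffs, by which *Acat2* alone was called.

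**Figure D1:**
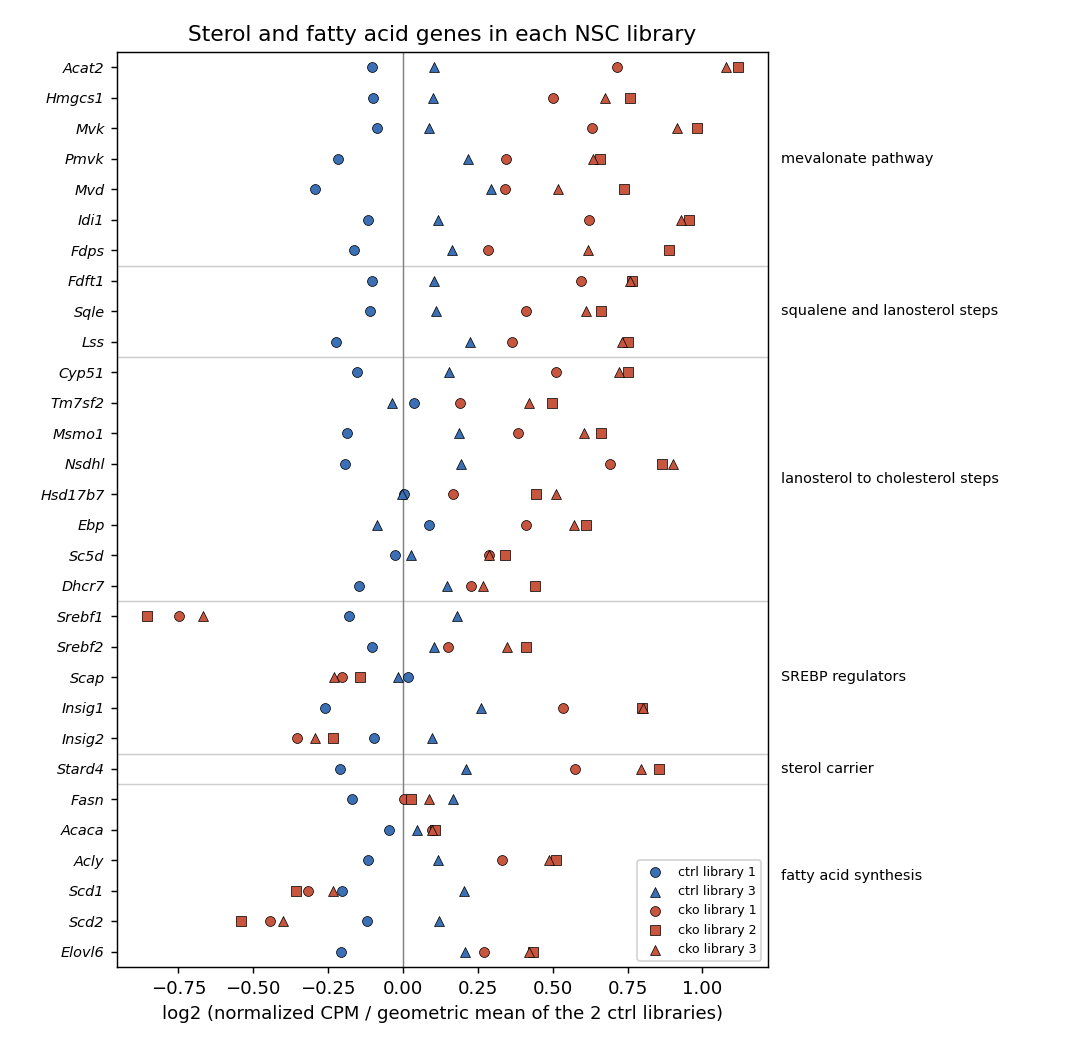
Each row is 1 gene, ordered by its place in the pathway, and each point is 1 library, placed by the log2 of its normalized CPM over the geometric mean of both ctrl libraries (blue: ctrl, red: cko, marker shape: replicate number). The 18 sterol enzymes lie to the right in all 3 cko libraries, *Srebf1* and *Scd2* lie to the left, and cko library 1 is the lowest cko library in 17 of the 18 enzymes.

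The spread within each genotype was itself shared by these genes. Ctrl library 3 was above ctrl library 1 in 26 of the 30 genes, compared with 49.4% of all tested genes, and cko library 1 was the lowest cko library in 25 of the 30, compared with 39.4%. Summed over the 18 sterol enzymes, normalized CPM was 2034 and 2423 in the ctrl libraries and 3059, 3691 and 3537 in cko libraries 1, 2 and 3. The cko mean of 3429 ± 330 (SD, n = 3) was 1.54 times the ctrl mean of 2228 ± 276 (SD, n = 2). The summed level of 7 astrocyte markers ran in the reverse order over the 5 libraries, at 3037 and 2001 in ctrl and 1533, 833 and 869 in cko libraries 1, 2 and 3. Most of the gap between the ctrl libraries came from *Gfap*, at 1008 and 178 in ctrl and 298, 86.7 and 122 in the cko libraries. In the sum without *Gfap*, ctrl library 1 stayed highest, followed by ctrl library 3 and cko library 1. Cko libraries 2 and 3 were then lowest and nearly equal. Ctrl library 3 was above ctrl library 1 in 3 of the 7 markers. The part of these markers in the sterol genes was not tested.

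Promoter sequences from RefSeq (GRCm38.p6) were available for 24 of the 30 genes, as 32 windows from 250 bases before to 50 bases after a transcription start. The sterol regulatory element core CACNCCAC (N is any base), searched on both strands, occurred in 3 of these windows, those of *Insig1*, *Hmgcs1* and *Acat2*, and in 6.24% of all 32851 windows. The longer form TCACNCCAC, which includes the core, occurred only in that of *Hmgcs1* and in 1.24% of all windows. The box CCAAT, bound by NF-Y, a factor that acts with SREBPs, occurred in 21 of the 32 windows and in 37.4% of all windows. By gene, it was found in 20 of 24, beside 41.1% of all 27025 genes. It was found in 11 of the 12 with a promoter that were called higher, and in most of those not called higher. The E-box CACGTG, also read by SREBP1, occurred in 6 of the 32 windows and in 7.15% of all. A match describes the letters and is not a bound site. All 3 promoters with the core are shown, whatever the change of their genes. Each runs from 250 bases before the start to the base before it, 5′ to 3′. The core or its longer form, the CCAAT box and the E-box are in capitals.
*Hmgcs1* promoter, chr13:119690101-119690350, plus strand: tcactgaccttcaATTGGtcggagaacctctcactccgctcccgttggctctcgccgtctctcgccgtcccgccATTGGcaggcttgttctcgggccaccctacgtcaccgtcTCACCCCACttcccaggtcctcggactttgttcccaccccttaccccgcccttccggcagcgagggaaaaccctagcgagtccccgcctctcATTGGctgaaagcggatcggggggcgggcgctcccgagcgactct
*Insig1* promoter, chr5:28071162-28071411, plus strand: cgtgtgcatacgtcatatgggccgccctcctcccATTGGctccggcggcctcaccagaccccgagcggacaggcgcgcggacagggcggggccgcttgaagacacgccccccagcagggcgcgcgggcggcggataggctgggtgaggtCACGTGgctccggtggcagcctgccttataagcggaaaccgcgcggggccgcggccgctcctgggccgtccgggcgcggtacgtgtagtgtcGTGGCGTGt
*Acat2* promoter, chr17:12960726-12960975, minus strand: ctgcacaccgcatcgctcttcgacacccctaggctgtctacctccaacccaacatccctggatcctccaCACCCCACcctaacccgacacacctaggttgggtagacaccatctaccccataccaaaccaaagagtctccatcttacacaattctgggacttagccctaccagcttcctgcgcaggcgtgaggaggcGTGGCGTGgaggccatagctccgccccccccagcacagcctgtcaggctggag
In *Hmgcs1* the longer element began 137 bases before the start, and CCAAT boxes on the opposite strand began at 237, 176 and 45 bases before it. The *Insig1* promoter held the core on the opposite strand 9 bases before the start, an E-box at 101 bases and a CCAAT box at 216 bases. *Acat2* held the core at 181 and, on the opposite strand, at 53 bases before the start, and no CCAAT box in this window.

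The 7 genes from acetyl-CoA to farnesyl diphosphate were higher in each cko library than in both ctrl libraries, and 4 of the 7 passed the threshold. *Acat2* (ENSMUSG00000023832, chromosome 17, 12942890 to 12960747 in GRCm38), the cytosolic thiolase that joins acetyl-CoA units, was measured at 123 and 142 normalized CPM in ctrl libraries 1 and 3 and at 217, 287 and 279 in cko libraries 1 to 3. It had the largest change of the 30 genes, 0.98 on the log2 scale (standard error, SE, 0.14, edgeR adjusted p = 0.00534), and was the single gene past the threshold of the study. *Hmgcs1* (ENSMUSG00000093930, chromosome 13, 119690379 to 119708260), which makes HMG-CoA, was measured at 646 and 742 in ctrl and at 980, 1171 and 1105 normalized CPM in cko NSCs. The cko libraries were all above the ctrl libraries, with a log2 fold change of 0.64 (SE 0.11, edgeR adjusted p = 0.00925, 0.0658 without cko library 2 and 0.0629 without cko library 3). *Mvk*, which phosphorylates mevalonate, had 37.3 and 42.1 normalized CPM in ctrl and 61.4, 78.3 and 74.7 in cko NSCs, a log2 fold change of 0.85 (edgeR adjusted p = 0.00577). *Idi1*, which isomerizes isopentenyl diphosphate, had 55.7 and 65.4 in ctrl and 92.8, 117 and 115 in cko NSCs, a log2 fold change of 0.84 (edgeR adjusted p = 0.00659). In both genes the lowest cko library was above the higher ctrl library.

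The kinase and decarboxylase that follow *Mvk* did not pass the threshold. *Pmvk* had 32.6 and 44.1 normalized CPM in ctrl and 48.1, 59.9 and 58.9 in cko NSCs, and the log2 fold change was 0.54 (edgeR adjusted p = 0.0523, 0.0194 in DESeq2). *Mvd* had 51.9 and 77.9 in ctrl and 80.6, 106 and 91.1 in cko NSCs, and the log2 fold change was 0.51 (edgeR adjusted p = 0.0991). The wide gap between the ctrl libraries stands in both genes beside a cko library 1 just above ctrl library 3. *Fdps*, which makes farnesyl diphosphate, had 4.67 and 5.87 in ctrl and 6.38, 9.69 and 8.04 in cko NSCs (log2 fold change 0.62, edgeR adjusted p = 0.112). Its reads are uncertain. At its locus, the annotated gene *Gm43738* lies on the same strand and shares 929 of 1382 bases of the *Fdps* transcript at 100% identity. *Gm43738* is not among the counted genes. GENCODE M21 holds 4 genes elsewhere whose transcripts match *Fdps* at 95% identity or more over at least 150 bases, and the copy *Gm3571* was listed at 8.87 normalized CPM in ctrl and 17.0 in cko NSCs, above *Fdps* itself.

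**Figure D2:**
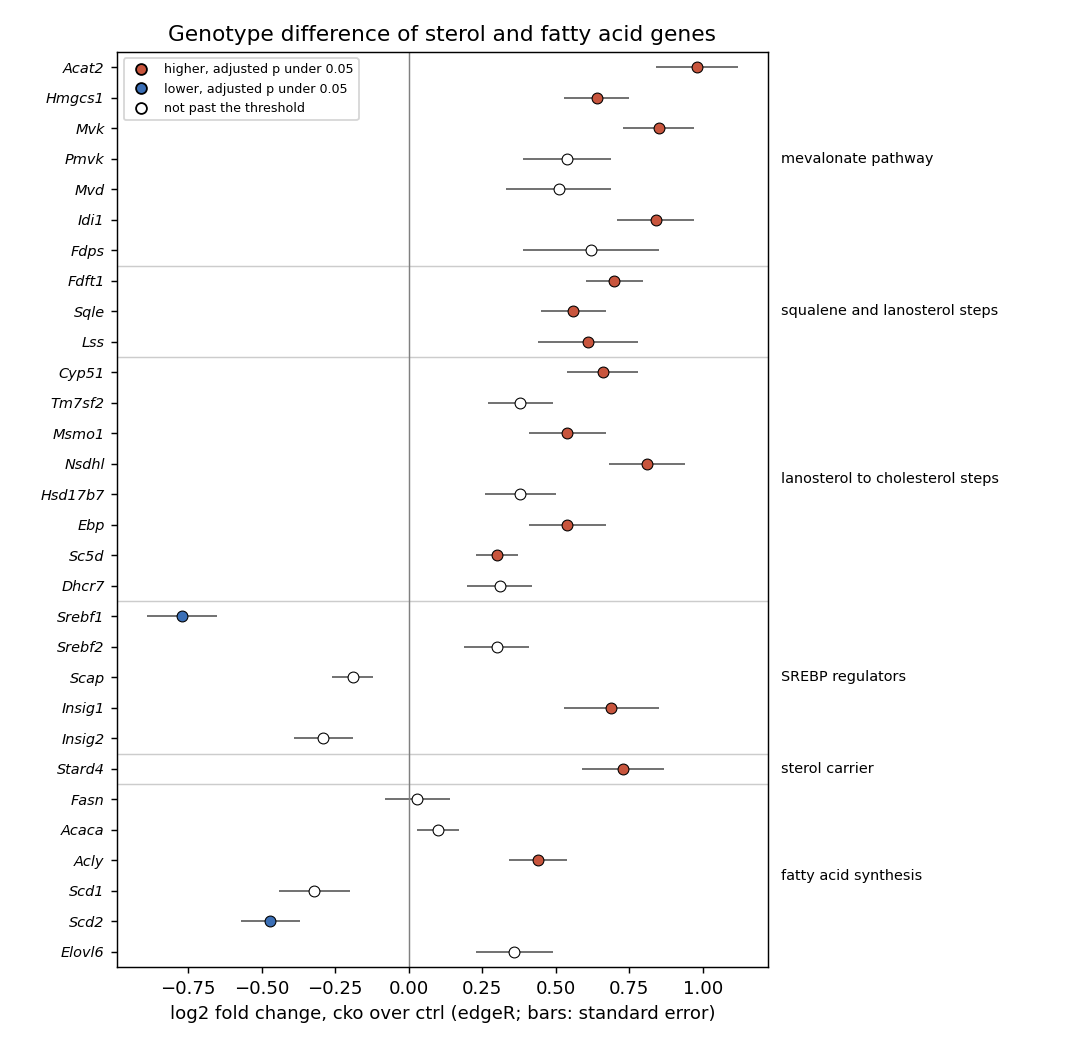
Points give the log2 fold change of cko over ctrl NSCs from edgeR for each of the 30 genes, bars the standard error, and filled points an adjusted p under 0.05 (red: higher, blue: lower). All 18 sterol enzymes are to the right of 0, from 0.30 to 0.98, while the regulators and the fatty acid genes lie on both sides.

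All 3 enzymes that lead from farnesyl diphosphate to lanosterol rose. Squalene synthase, *Fdft1* (ENSMUSG00000021273, chromosome 14, 63145150 to 63179578), had 109 and 126 normalized CPM in ctrl and 177, 199 and 198 in cko NSCs, and its log2 fold change was 0.70 (SE 0.096, edgeR adjusted p = 0.00494). Its transcript shares 774 bases with *Ctsb* on the opposite strand, which went from 443 to 296 normalized CPM, and without a stated strand setting the reads of this stretch cannot be told apart between the pair. Squalene epoxidase, *Sqle*, an oxygen-dependent step of the route, had 147 and 171 in ctrl and 211, 251 and 242 in cko NSCs (log2 fold change 0.56, edgeR adjusted p = 0.0144). Lanosterol synthase, *Lss*, had 153 and 209 in ctrl and 230, 301 and 297 in cko NSCs (log2 fold change 0.61, edgeR adjusted p = 0.0455). The margin was narrow for *Lss*, whose adjusted p in edgeR was 0.0879 without ctrl library 1, where its log2 fold change was 0.39, 0.165 without cko library 2 and 0.162 without cko library 3.

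Of the 8 enzymes that turn lanosterol into cholesterol, 5 rose, and the other 3 were also higher in each cko library without passing the threshold. *Cyp51*, the lanosterol demethylase, was measured at 186 and 230 normalized CPM in ctrl and at 295, 348 and 341 in cko NSCs, a log2 fold change of 0.66 (SE 0.12, edgeR adjusted p = 0.0121). *Nsdhl*, a dehydrogenase that acts together with *Msmo1* to remove methyl groups of the sterol, was measured at 55.3 and 72.2 in ctrl and at 102, 115 and 118 in cko NSCs. Its log2 fold change of 0.81 was the largest of this group (SE 0.13, edgeR adjusted p = 0.00781). *Msmo1*, the sterol methyl oxidase, had a log2 fold change of 0.54 (edgeR adjusted p = 0.0334, 0.0576 without ctrl library 1), and so had *Ebp*, the sterol isomerase (edgeR adjusted p = 0.0358, 0.0559 without cko library 1 and 0.0620 without ctrl library 3). Both, like *Sc5d*, also lost their call without cko library 2 or 3. The change of the sterol desaturase gene *Sc5d* was smaller, from 85.4 and 88.5 in ctrl to 106, 110 and 106 normalized CPM in cko NSCs (log2 fold change 0.30, SE 0.071, edgeR adjusted p = 0.0290, 0.0665 without cko library 1). The sterol reductase genes *Tm7sf2* (0.38, adjusted p = 0.0523) and *Dhcr7* (0.31, adjusted p = 0.100) and the ketosteroid reductase gene *Hsd17b7* (0.38, adjusted p = 0.0718) had smaller log2 fold changes in edgeR. *Dhcr7*, the last step of one branch of the route, was at 159 and 195 in ctrl and at 206, 239 and 212 normalized CPM in cko NSCs, and cko library 1 was close to ctrl library 3.

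Of the 5 regulators, *Insig1* rose, *Srebf1* fell, and *Srebf2*, *Scap* and *Insig2* did not pass the threshold. *Srebf1* (ENSMUSG00000020538, chromosome 11, 60199089 to 60222581) was measured at 289 and 371 normalized CPM in ctrl and at 195, 181 and 206 in cko NSCs. All cko libraries were below both ctrl libraries, with a log2 fold change of -0.77 (SE 0.12, edgeR adjusted p = 0.00654). *Srebf2*, on the other hand, was at 386 and 446 in ctrl and at 461, 552 and 528 normalized CPM in cko NSCs, and its log2 fold change was 0.30 (edgeR adjusted p = 0.0962, 0.0212 without ctrl library 3). Per kilobase of annotated exon, both genes stood at about the same level in ctrl NSCs, 58.6 for *Srebf1* and 58.0 for *Srebf2*, and at 34.4 and 71.5 normalized CPM per kilobase in cko NSCs. The log2 ratio of *Srebf1* to *Srebf2* was -0.42 and -0.27 in the ctrl libraries and -1.24, -1.61 and -1.36 in the cko libraries. The genotypes did not overlap and differed by -1.06 on the log2 scale (exact permutation test over libraries, two-sided, p = 0.2, which is the smallest p that 2 against 3 libraries allow).

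*Insig1* (ENSMUSG00000045294, chromosome 5, 28071363 to 28078662), which encodes the INSIG that SREBPs themselves induce, was measured at 158 and 227 normalized CPM in ctrl and at 274, 329 and 330 in cko NSCs. Its log2 fold change was 0.69 (SE 0.16, edgeR adjusted p = 0.0286, 0.0524 without cko library 1, 0.121 without cko library 2 and 0.118 without cko library 3), and 0.44 without ctrl library 1. *Insig2* was at 27.7 and 31.7 in ctrl and at 23.2, 25.2 and 24.2 normalized CPM in cko NSCs, and its log2 fold change was -0.29 (edgeR adjusted p = 0.0991). The log2 ratio of *Insig1* to *Insig2* was 2.51 and 2.84 in ctrl and 3.56, 3.71 and 3.77 in cko libraries, a difference of 1.01 with no overlap (exact permutation test, two-sided, p = 0.2, again the smallest possible). *Scap*, the escort protein, was at 134 and 131 in ctrl and 115, 120 and 113 normalized CPM in cko NSCs (log2 fold change -0.19, edgeR adjusted p = 0.104). *Stard4*, which encodes a cytosolic carrier of cholesterol and is a known SREBP target, rose from 80.7 and 108 in ctrl to 139, 169 and 162 normalized CPM in cko NSCs (log2 fold change 0.73, SE 0.14, edgeR adjusted p = 0.0158, 0.0810 without cko library 2 and 0.0789 without cko library 3).

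**Figure D3:**
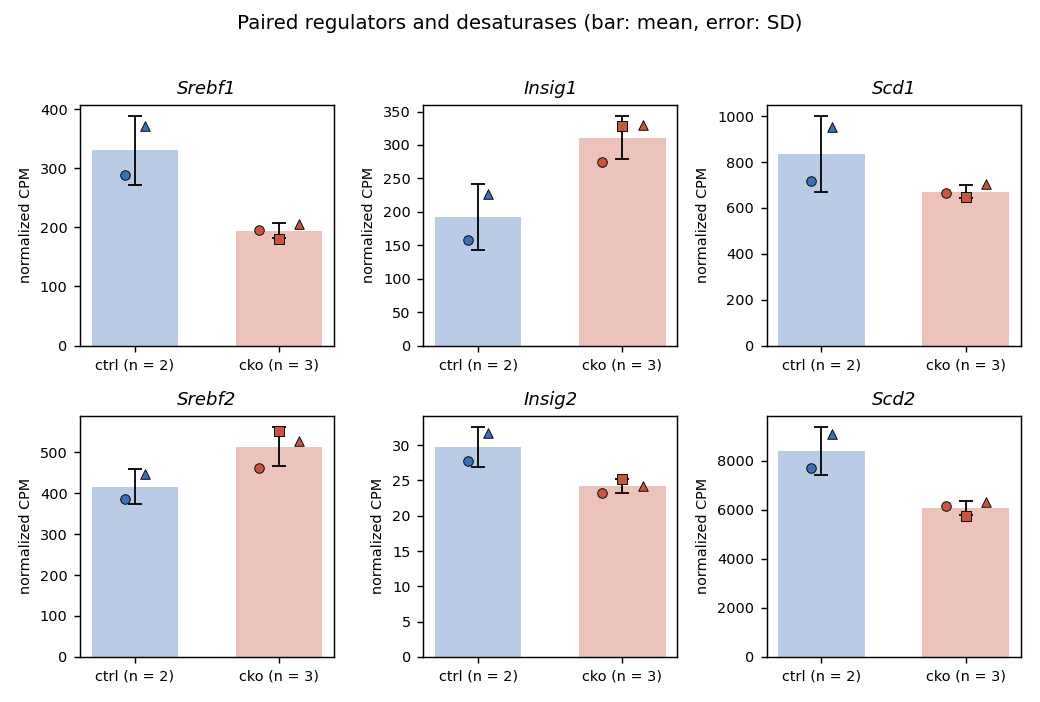
Normalized CPM of 3 gene pairs in each library (bars: mean, error bars: SD, n = 2 ctrl and n = 3 cko, marker shape: replicate number). *Srebf1* is lower in all cko libraries while *Srebf2* is higher, *Insig1* is higher while *Insig2* is lower, and both *Scd* genes are lower.

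The 6 fatty acid genes did not move in a single direction, and 1 rose and 1 fell. *Acly*, which splits citrate to supply acetyl-CoA to both routes, rose from 370 and 435 in ctrl to 505, 572 and 563 normalized CPM in cko NSCs (log2 fold change 0.44, SE 0.10, edgeR adjusted p = 0.0269, 0.137 without cko library 2 and 0.129 without cko library 3). The 2 enzymes that commit acetyl-CoA to fatty acids showed the smallest differences of the 30 genes. *Acaca*, acetyl-CoA carboxylase, was at 212 and 226 in ctrl and at 234, 236 and 234 in cko NSCs (log2 fold change 0.10, SE 0.070, edgeR adjusted p = 0.370). *Fasn*, fatty acid synthase, was at 1229 and 1553 in ctrl and at 1386, 1409 and 1467 normalized CPM in cko NSCs, so that the cko libraries lay between the ctrl libraries (log2 fold change 0.03, SE 0.11, edgeR adjusted p = 0.881). *Elovl6*, which elongates palmitate, was at 150 and 200 in ctrl and at 209, 234 and 232 in cko NSCs (log2 fold change 0.36, edgeR adjusted p = 0.0957, 0.00273 without ctrl library 3).

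*Scd1* and *Scd2* encode stearoyl-CoA desaturases, which introduce the double bond of oleate. *Scd2* (ENSMUSG00000025203, chromosome 19, 44293674 to 44306864), the main form in brain, was by far the most abundant of the 30 transcripts, with 1535 normalized CPM per kilobase of exon in ctrl and 1112 in cko NSCs. It fell from 7696 and 9076 in ctrl to 6146, 5745 and 6331 normalized CPM in cko NSCs (log2 fold change -0.47, SE 0.10, edgeR adjusted p = 0.0244, and between 0.0734 and 0.163 when any cko library was left out). *Scd1* was at 719 and 952 in ctrl and at 664, 646 and 703 in cko NSCs (log2 fold change -0.32, edgeR adjusted p = 0.122, 0.00175 without ctrl library 1). The log2 ratio of *Scd2* to *Scd1* was 3.42 and 3.25 in ctrl and 3.21, 3.15 and 3.17 in cko libraries, so that the ratio of the pair differed by -0.16 (exact permutation test, two-sided, p = 0.2, the smallest possible). *Scd2* matches a transcript of *Scd1* on the same strand, over 623 bases at 95.5% identity. Reads of this stretch may have been counted for either gene, which was not tested and limits the level of *Scd1* and the ratio. Since *Scd2* makes up most of their reads, the summed level of the 6 fatty acid genes was 10376 and 12442 normalized CPM in ctrl and 9143, 8842 and 9531 in cko NSCs, a ratio of 0.804, against 1.54 for the sterol enzymes.

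Levels could be compared between genes only per length. In ctrl NSCs, *Scd2* was followed by *Scd1* at 171, *Hmgcs1* at 151 and *Fasn* at 127 normalized CPM per kilobase. In cko NSCs *Hmgcs1* stood at 236, *Scd1* at 137 and *Fasn* at 130, so that *Hmgcs1* moved ahead of *Scd1*. Among the sterol enzymes, *Hmgcs1*, *Acat2* (52.1 in ctrl and 103 in cko NSCs) and *Cyp51* (47.0 and 74.2) had the highest levels, and *Ebp* (5.01 and 7.27), *Hsd17b7* (5.34 and 6.96) and the uncertain *Fdps* (1.25 and 1.91) the lowest.

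Counts can be shared between genes that overlap or are nearly identical. Searched from the longest coding transcript of each gene, 12 of the 30 genes had such a partner. The partner of *Scd2* was *Scd1*, which gave no match in its own search and so was not counted among the 12. A close copy of *Acat2* is *Acat3*, at 97.7% identity over 1477 bases and 8.30 normalized CPM in ctrl and 3.93 in cko NSCs. *Acat2* also matches *Tcp1* on the opposite strand, over 445 bases at 98.7% identity. *Tcp1* was at 246 normalized CPM in ctrl and 263 in cko NSCs. *Cyp51* shares 166 bases with *Akap9* on the opposite strand, at 185 in ctrl and 204 in cko NSCs. Without a stated strand setting, reads of these stretches may have been counted for either gene. *Acaca* shares 6118 bases with *Gm5182* at 99.2% identity. The 18 genes without a partner by this search still include *Scd1*. Among these 18, 8 were higher and 1 lower at an adjusted p under 0.05 in edgeR, with a median log2 fold change of 0.41. Of the sterol enzymes, 11 had no partner, and 6 of the 11 were higher.

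The genes around these routes were read out in 4 lists of 69 genes, of which 68 could be tested. Of these, 4 (5.88%) were higher and 11 (16.2%) lower, beside 7.86% and 8.57% of all tested genes. No gene of the isoprenoid branch and of protein prenylation was called among 15, while *Fnta* was close to the threshold (edgeR adjusted p = 0.0501). *Fnta* was called lower in DESeq2 (adjusted p = 0.0328) and in edgeR with the other filters (0.0393 and 0.0405), the other size factors (0.0483), all 6 columns (0.00999) and without cko library 1 (0.0451), but not in the remaining settings. Of 10 genes of SREBP processing and sterol-regulated protein degradation, 2 were lower, among them *Erlin1*, which acts in the degradation of proteins of the endoplasmic reticulum (log2 fold change -0.56, edgeR adjusted p = 0.0155). Of 19 tested genes of sterol uptake, storage and efflux, 3 (15.8%) were higher and 4 (21.1%) lower. *Soat1*, which esterifies cholesterol for storage, fell from 126 and 137 in ctrl to 69.4, 62.4 and 65.4 normalized CPM in cko NSCs (log2 fold change -1.0, SE 0.081, edgeR adjusted p = 0.00107). *Abcg1*, a cholesterol exporter, fell from 7.78 and 13.9 to 4.31, 3.77 and 4.87 (log2 fold change -1.32, edgeR adjusted p = 0.0180, log2 fold change -0.85 without ctrl library 3). *Mylip*, a ubiquitin ligase that removes lipoprotein receptors from the membrane, fell from 2.45 in each ctrl library to 1.18, 0.943 and 0.965 (log2 fold change -1.26, edgeR adjusted p = 0.0245), and the last of the 4 was *Cyp46a1*, the brain cholesterol hydroxylase. It was at 27.7 and 12.3 in ctrl and at 8.23, 8.87 and 7.45 normalized CPM in cko NSCs, with ctrl library 1 far above the rest (log2 fold change -1.30, edgeR adjusted p = 0.0298, and -0.60 without ctrl library 1, adjusted p = 0.0398). The lipoprotein receptor gene *Lrp8* rose from 81.9 and 87.9 in ctrl to 128, 154 and 159 normalized CPM in cko NSCs (log2 fold change 0.79, SE 0.11, edgeR adjusted p = 0.00495). *Stard3* (0.34) and *Npc2* (0.27), which act in late endosomes and lysosomes, had smaller log2 fold changes.

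In the list for fatty acid supply, elongation and desaturation, 5 of 24 genes (20.8%) were lower and 1 (4.17%) higher. *Elovl7*, an elongase, fell from 23.4 in each ctrl library to 8.39, 5.79 and 7.08 normalized CPM in cko NSCs (log2 fold change -1.73, SE 0.17, edgeR adjusted p = 0.00184). *Acsl3*, which activates fatty acids (-0.64, edgeR adjusted p = 0.00882), and *Me1*, a source of NADPH (-0.93, adjusted p = 0.0101), fell as well, with *Thrsp* and *Fads2* as the others, and *Fads3* was the gene that rose (0.80, adjusted p = 0.0340). Over the 4 lists, *Lrp8* remained the single higher gene when any cko library was left out, and the lower genes were reduced to *Soat1* and *Elovl7* without cko library 2 and to these and *Acsl3* without cko library 3. Without ctrl library 3, 9 genes of the 4 lists were higher.

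**Figure D4:**
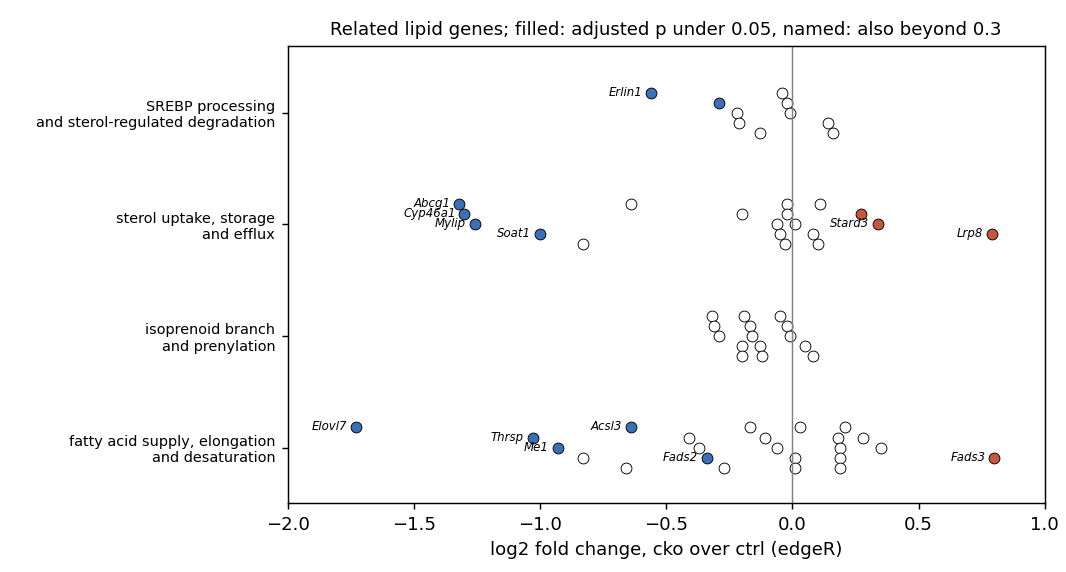
Log2 fold changes of cko over ctrl NSCs from edgeR for the 68 tested genes of 4 related lists, 1 point per gene with a small vertical offset. Filled points have an adjusted p under 0.05, blue for the 11 lower genes and red for the 4 higher genes, and they stretch from *Elovl7* at -1.73 to *Fads3* at 0.80.

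Markers of the cell types that such cultures could hold were read out in the same libraries, since in bulk RNA fewer cells of a type and less RNA per cell cannot be told apart. The counts called below stand beside 7.86% of all tested genes that were higher and 8.57% that were lower. Of 10 NSC markers, 3 were higher and 1 lower, and their summed level was 7146 to 8151 normalized CPM in ctrl and 8349 to 9067 in cko NSCs. Of 7 astrocyte markers, 4 were lower, and their sum was 2001 to 3037 normalized CPM in ctrl and 833 to 1533 in cko NSCs, ranges that do not overlap. Of 11 tested genes of the oligodendrocyte lineage, 6 were lower and 2 higher, while the sum of the 12 listed genes was 3221 to 3843 in ctrl and 3512 to 3765 normalized CPM in cko NSCs. Of 8 tested neuronal markers, 2 were higher and 1 lower, with sums of 1220 to 1347 and 1339 to 1374. Microglial markers were near 0, with none of 7 testable, sums of at most 1.23 normalized CPM, and *Aif1*, *Cx3cr1*, *Csf1r* and *Tmem119* at or under 3 counts in every library. The vascular and fibroblast markers summed to at most 9.02, with *Cdh5* and *Flt1* at or under 3 counts in every library. Glial cells express the lipid genes described here, and the part of the glial markers in the changes of these genes was not tested.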

How the data were processed

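RNA-seq counts of E14.5 NSCs, labelled as 3 ctrl and 3 cko samples, were analysed. According to the study's methods, the authors checked reads with FastQC, filtered them with NGSQC and aligned them to mm10 with HISAT2 (the labels name GRCm39). They deposited raw counts per Ensembl gene without normalization, and the counting tool, annotation and strand setting are not given in the sources used here. Gene names, positions and exon lengths were taken from GENCODE M21 (GRCm38), where 31836 of 32493 IDs were found.

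Tests were run with edgeR 4.0.16 under R 4.3.3 (filterByExpr by genotype, TMM, quasi-likelihood test over 16710 genes, Benjamini-Hochberg). TMM factors lay between 0.990 and 1.01. The averaged ctrl column was used only in an alternative fit of all 6 columns. Levels are TMM-normalized CPM, errors SD over libraries. The standard error of a log2 fold change was derived from the quasi-likelihood F statistic. It is the absolute log2 fold change divided by the square root of F. Transcripts were compared by blastn 2.17.0, and figures drawn with matplotlib 3.10.9. The steps were tested on simulated data. Other settings were DESeq2 1.42.0, edgeR with size factors by median of ratios, a minimum of 10 counts in every library or no filter, the replicate number as a block, all 6 columns, the threshold of the study and leaving out each library.

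The 30 genes, the related and marker lists and the tests were chosen with earlier results of these data known, and the promoter motifs and the search for copies after the values were seen. All 30 genes are named. Of each related list, up to 3 higher and 3 lower genes with the smallest p were named, and *Cyp46a1*, *Thrsp*, *Fads2* and *Fnta* outside this rule after their values were seen. The astrocyte marker *Gfap* was also named after its values were seen. The values of 1 gene that the rule names are not reported here. *Cldn5*, of the vascular list, was not analysed here. No batch is labelled. The list does not hold every gene of the pathway.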

Additional observations from a re-analysis of the deposited data

How the results depend on the processing

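Directions were stable, but the number of calls was not. The sign of the log2 fold change was kept under all 11 alternative settings in 29 of the 30 genes, the exception being *Fasn*, at -0.0040 without cko replicate 3, -0.14 without ctrl replicate 1 and 0.21 without ctrl replicate 3. With all 6 columns, which count the averaged ctrl column as a library, 23 of the 30 genes were higher and 4 lower, 20 related genes were lower, and 2865 of all genes were higher and 2794 lower. Without the filter on low counts, 23 of the 30 genes were higher, 17 related genes lower and 2237 of all genes lower. At the threshold of the study, the 30 genes gave 1 higher and 0 lower, the related genes 0 higher and 7 lower, and all genes 399 higher and 696 lower. With DESeq2, *Pmvk* and *Tm7sf2* were called as well, and the other scaling and the stricter filter changed no call among the 30 genes.

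Leaving out each library in turn gave 4 to 19 higher and 1 to 4 lower among the 30 genes, 1 to 9 higher and 2 to 15 lower related genes, and 317 to 1812 higher and 416 to 2062 lower of all genes. The cause was not tested, beyond the smaller number of libraries in these fits, and where 1 ctrl library was left it was assumed to vary like the others. The median log2 fold change of the 30 genes lay between 0.37 and 0.63, the difference in log2 ratio between -0.24 and -0.08 for *Scd2* to *Scd1*, between 0.84 and 1.17 for *Insig1* to *Insig2* and between -1.14 and -0.96 for *Srebf1* to *Srebf2*.

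The replicate numbers in the labels are shared only as numbers. Deviations of same-numbered libraries had a correlation of 0.143 for number 1 and 0.0507 for number 3, with cko replicate 2 unpaired. Ctrl replicate 3 and cko replicate 2, which differ in number, had 0.116. The deviations of the 2 ctrl libraries mirror each other, with -0.143 for ctrl replicate 3 and cko replicate 1. These values therefore cannot show whether libraries are paired. With the replicate number as a block, 13 of the 30 genes were higher and 1 lower, with *Ebp*, *Sc5d*, *Acly* and *Scd2* no longer called and *Pmvk* called, 1 related gene was higher and 9 lower, and all genes gave 918 higher and 1065 lower. At these depths, genes near 3 counts per library could not be compared.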

Other observations

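The near-identical copies of these genes gave values of their own. *Acat3* was listed at 13.0 normalized CPM in ctrl library 1, at 3.63 in ctrl library 3 and at 3.86, 3.94 and 4.0 in the cko libraries, so that its higher ctrl mean came from 1 library. *Gm3571*, a processed pseudogene at 98.9% identity to *Fdps* over 1062 bases, was listed at 8.52 and 9.23 normalized CPM in ctrl and at 14.7, 19.3 and 16.9 in cko NSCs. *Gm5182*, the processed pseudogene that resembles *Acaca*, was listed at 26.1 and 27.7 in ctrl and at 28.8, 30.2 and 28.6 normalized CPM in cko NSCs. Reads of a copy and its parent gene may have been divided between them, and how they were divided was not tested.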
